A study of Mus musculus with 192 samples.

Results

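The 10 genes described here belong to the circadian clock. They were chosen by name (Arntl, Npas2, Cry1, Per1, Per2, Per3, Nr1d1, Nr1d2, Dbp and Ciart) out of 54752 genes in the expression table, and all 10 were measured in 9 tissues of flown and ground-kept mice. The clock is a loop of transcription factors that runs in nearly every cell with a period of about a day. BMAL1, the product of Arntl, pairs with CLOCK or with NPAS2 and drives genes that carry E-box sequences, among them the Per and Cry genes, whose proteins return to block the pair. The nuclear receptors REV-ERB alpha and beta (Nr1d1 and Nr1d2) repress Arntl, Ciart encodes a further repressor of the BMAL1 pair, and DBP (Dbp) is an output factor that binds D-box sequences. In liver and fat this loop sets the daily timing of metabolism, so that a clock transcript level depends strongly on the hour at which a tissue is taken.

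The mice were male C57BL/6 animals (C57BL/6J in the study's methods), either wild type (WT) or Nrf2KO, which carry a germline deletion in Nfe2l2, the gene of the stress-response factor NRF2, in all cells. The label age was 12 weeks in all groups. By the study's methods, mice had reached this age by the end of acclimation, before launch, so flight mice were older when dissected. FL_WT and FL_KO mice (condition Flight) lived singly on the space station and were dissected in California after splashdown and a sea and road transport. GC_WT and GC_KO mice (condition Ground_control) lived in the same cage units in Japan at another time of year and without launch or landing. Mice of both conditions went through behavioural tests before dissection. Each group held 6 mice, or 5 in FL_KO after flight mouse 04 was left out, and 3 in mandibular bone (MdB) and kidney (Kid), where FL_KO of MdB held 2. Mouse 04 had bled into the intestine on the return flight, and Nrf2KO mice with an intrahepatic shunt had been screened out before the study. The other tissues were temporal bone (TpB), spleen (Spl), liver (Liv), epididymal white fat (eWAT), interscapular brown fat (iBAT), thymus (Thy) and cerebrum (Cbr). The hours of dissection are not given in the sources used here, so flight and the hour of sampling cannot be told apart. Flight and ground mice with the same number are different animals, and what the number stands for is not given either.

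Nfe2l2 TPM (a transcript level scaled for length and for the library's total) in Nrf2KO mice lay below every WT mouse of the same tissue in 9 of 9 tissues. Markers of each tissue were present, and in Cbr the summed forebrain neuron markers were 3780 to 4500 TPM against 36.8 to 70.8 TPM for cerebellar markers. Total expected counts per library were 8007523 to 10564704 in Thy and 13110740 to 16308175 elsewhere. Thy libraries came from rRNA-depleted RNA and all others from poly(A) RNA, so levels in Thy are not on the same footing as the rest. In these bulk samples, fewer cells of a type and less RNA per cell cannot be told apart.

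On GRCm38, Arntl lies at chr7:113207465-113314126, Npas2 at chr1:39193731-39363236, Cry1 at chr10:85131700-85185064, and Per1, Per2 and Per3 at chr11:69095217-69109960, chr1:91415982-91459324 and chr4:151003652-151044665. Nr1d1 lies at chr11:98767932-98775333, Nr1d2 at chr14:18204054-18239127, Dbp at chr7:45705088-45710203 and Ciart at chr3:95878503-95882251. Of the exon bases, 539 of 2993 in Dbp overlap Sphk2, 263 of 3077 in Nr1d1 overlap Thra and 33 of 7523 in Arntl overlap Gm45355, each on the opposite strand. The other 7 genes share no exon base with another gene.

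The stretches upstream of start sites are shown because the loop is known to act through short elements there. Whether these elements bear on the levels of the members in these mice was not tested. RefSeq windows of 250 bases before to 50 after a start (GRCm38.p6) were found for 9 of the 10 genes, all but Per2, and were searched on both strands for the E-box CACGTG, the D-boxes TTACGTAA and TTATGTAA, the receptor elements TAGGTCA and TGGGTCA, and the cyclic AMP element TGACGTCA. Ciart, Cry1 and 1 of the 2 Per1 windows held CACGTG, which stood in 7.15% of all 32851 windows, and Ciart held it 3 times. Per3 held TTATGTAA in 2 places, against 0.938% of all windows with a match, and 1 of the 2 Arntl windows held TAGGTCA (2.61% of all windows). No match was found in these windows of Npas2, Dbp, Nr1d1 and Nr1d2. TTACGTAA (0.119% of all windows), TGGGTCA (3.98%) and TGACGTCA (1.79%) were in none of the windows of the 9 genes. The sequences below are 5′ to 3′ on the gene's strand, end before the first annotated exon base, and carry the matches in capitals, except for Arntl, where 27 bases around a match inside the transcript are given.
Ciart, chr3:95882252-95882478, minus strand, in C920021L13Rik on the annotation: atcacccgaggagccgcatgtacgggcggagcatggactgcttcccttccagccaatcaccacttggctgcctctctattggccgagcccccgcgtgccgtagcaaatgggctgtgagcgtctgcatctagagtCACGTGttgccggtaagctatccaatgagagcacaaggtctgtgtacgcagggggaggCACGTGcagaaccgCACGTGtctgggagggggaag
Cry1, chr10:85185065-85185304, minus strand: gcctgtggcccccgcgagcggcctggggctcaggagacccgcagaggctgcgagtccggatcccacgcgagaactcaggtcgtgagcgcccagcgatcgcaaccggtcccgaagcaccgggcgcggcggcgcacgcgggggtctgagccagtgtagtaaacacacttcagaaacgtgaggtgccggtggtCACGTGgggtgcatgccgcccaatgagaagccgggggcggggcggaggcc
Per1, chr11:69098699-69098947, plus strand, inside a longer Per1 gene model: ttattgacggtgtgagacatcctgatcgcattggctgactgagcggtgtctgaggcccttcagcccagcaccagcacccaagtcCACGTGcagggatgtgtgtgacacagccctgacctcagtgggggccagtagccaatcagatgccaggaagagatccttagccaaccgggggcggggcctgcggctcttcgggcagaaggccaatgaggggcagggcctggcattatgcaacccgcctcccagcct
Per3, chr4:151044666-151044915, minus strand, within the span of Camta1: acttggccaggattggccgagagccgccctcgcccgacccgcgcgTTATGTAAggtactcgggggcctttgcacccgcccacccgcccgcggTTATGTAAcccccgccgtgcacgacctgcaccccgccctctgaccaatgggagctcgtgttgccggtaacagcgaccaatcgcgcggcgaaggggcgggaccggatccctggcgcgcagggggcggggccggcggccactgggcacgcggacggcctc
Arntl, chr7:113207531-113207557, plus strand: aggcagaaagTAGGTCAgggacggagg

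In GC_WT mice, the activator genes Arntl and Npas2 had different orders of tissues. Median Arntl was highest in Cbr (33.8 TPM, 26.7 to 36.8) and Thy (33.1 TPM, 27.8 to 36.4), which overlapped, and Thy stood apart from Spl, the next (24.7 TPM, 18.7 to 25.4). From Spl down to iBAT (6.27 TPM, 2.29 to 12.8), each tissue overlapped the next. Npas2, the partner of BMAL1 best known from the forebrain, was at 28.4 to 32.2 TPM in Cbr and at 1.29 to 7.33 TPM in Kid, the next tissue. In Liv Npas2 had the lowest median (0.095 TPM, 0.0 to 0.21 TPM). Cry1, which encodes a repressor, varied least between tissues, with medians from 8.99 TPM in Kid to 20.5 TPM in Thy and overlap between all neighbours in the order.

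Among the other repressors and outputs, Thy was the lowest or next to lowest tissue in GC_WT. Per2 was at 1.25 to 2.16 TPM in Thy and at 8.3 to 18.5 TPM in MdB, the next tissue, without overlap. Per3 in Thy (1.69 to 2.57 TPM) also lay below all Kid values (4.09 to 6.98 TPM). Nr1d1 in Thy was at 0.64 to 2.2 TPM and in Cbr at 45.9 to 79.4 TPM. Dbp was highest in Cbr (median 97.1 TPM, 63.1 to 127 TPM) and lowest in iBAT (8.65 TPM, 4.12 to 17.1 TPM). Ciart ranged from a median of 0.45 TPM in Thy to 23.8 TPM in Cbr. In eWAT the median of Per2 (42.1 TPM) and of Per3 (23.6 TPM) was above that of any other tissue, although the values overlapped those of TpB.

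Within a group, mice differed far more than these medians show, and in most tissues the mice fell in one order. In Liv of GC mice, Arntl was at 4.11 to 7.74 TPM in mice 01 to 06 and at 11.3 to 21.9 TPM in mice 07 to 12, without overlap. Nr1d1, whose product represses Arntl, was at 10.1 to 25.7 TPM in the first set and at 1.04 to 2.82 TPM in the second. The opposed levels of Arntl and Nr1d1 were thus seen among animals kept under one condition.

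FL mice showed the same order. In Liv, Arntl was at 5.4 to 11.5 TPM in FL mice 01 to 06 and at 10.03 to 25.2 TPM in FL mice 07 to 12, which overlapped slightly. Nr1d1 was at 10.99 to 19.9 TPM and at 2.34 to 7.0 TPM in these sets, without overlap. Ciart in Liv was at 8.41 to 25.1 TPM in FL mice 01 to 06 and at 0.4 to 3.46 TPM in FL mice 07 to 12, and in GC mice at 14.1 to 28.6 TPM and at 1.97 to 6.92 TPM. Dbp in Liv of GC mice was at 20.7 to 42.0 TPM and at 2.59 to 9.02 TPM in the first and second set.

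Most members were ordered alike in both fat depots and spleen. In Spl, however, the sets overlapped for Arntl, Npas2 and Cry1 in GC and FL mice. Median Cry1 of Spl was lower in mice 07 to 12 (14.88 and 13.75 TPM in the GC sets), whereas it was higher there in both fat depots. In eWAT of GC mice, Dbp was at 54.1 to 129 TPM in mice 01 to 06 and at 16.8 to 23.4 TPM in mice 07 to 12, and Arntl was at 0.92 to 5.06 TPM and at 17.2 to 30.6 TPM. Per1 in iBAT of GC mice was at 17.1 to 36.7 TPM and at 4.74 to 12.4 TPM. The sets of GC mice did not overlap in 9 of 10 genes in iBAT (5.37% of all genes at 1 TPM or more), 8 in eWAT (2.22%), 7 in Liv (5.89%) and 6 in Spl (1.51%). Fewer genes did so in Cbr (3, against 0.813% of all genes), Thy (1, 1.29%) and TpB (1, 0.192%). In FL mice the counts were 6 genes in iBAT (8.79% of all genes), 4 in Liv (11.6%), 5 in Spl (2.63%) and 6 in Thy (3.19%). The FL counts of eWAT (2, against 4.1% of all genes), Cbr (1, 3.41%) and TpB (0, 0.894%) were lower. In GC mice clock genes thus stood far above the background in fat, liver, spleen and Cbr, while Thy and TpB had 1 such gene each. In FL mice they stood above it in iBAT, Liv, Spl and Thy, while eWAT had 2 such genes, Cbr 1 and TpB 0. Liv had the highest background. These sets were formed after the values had been seen, and no test of their difference was made.

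**Figure D1:**
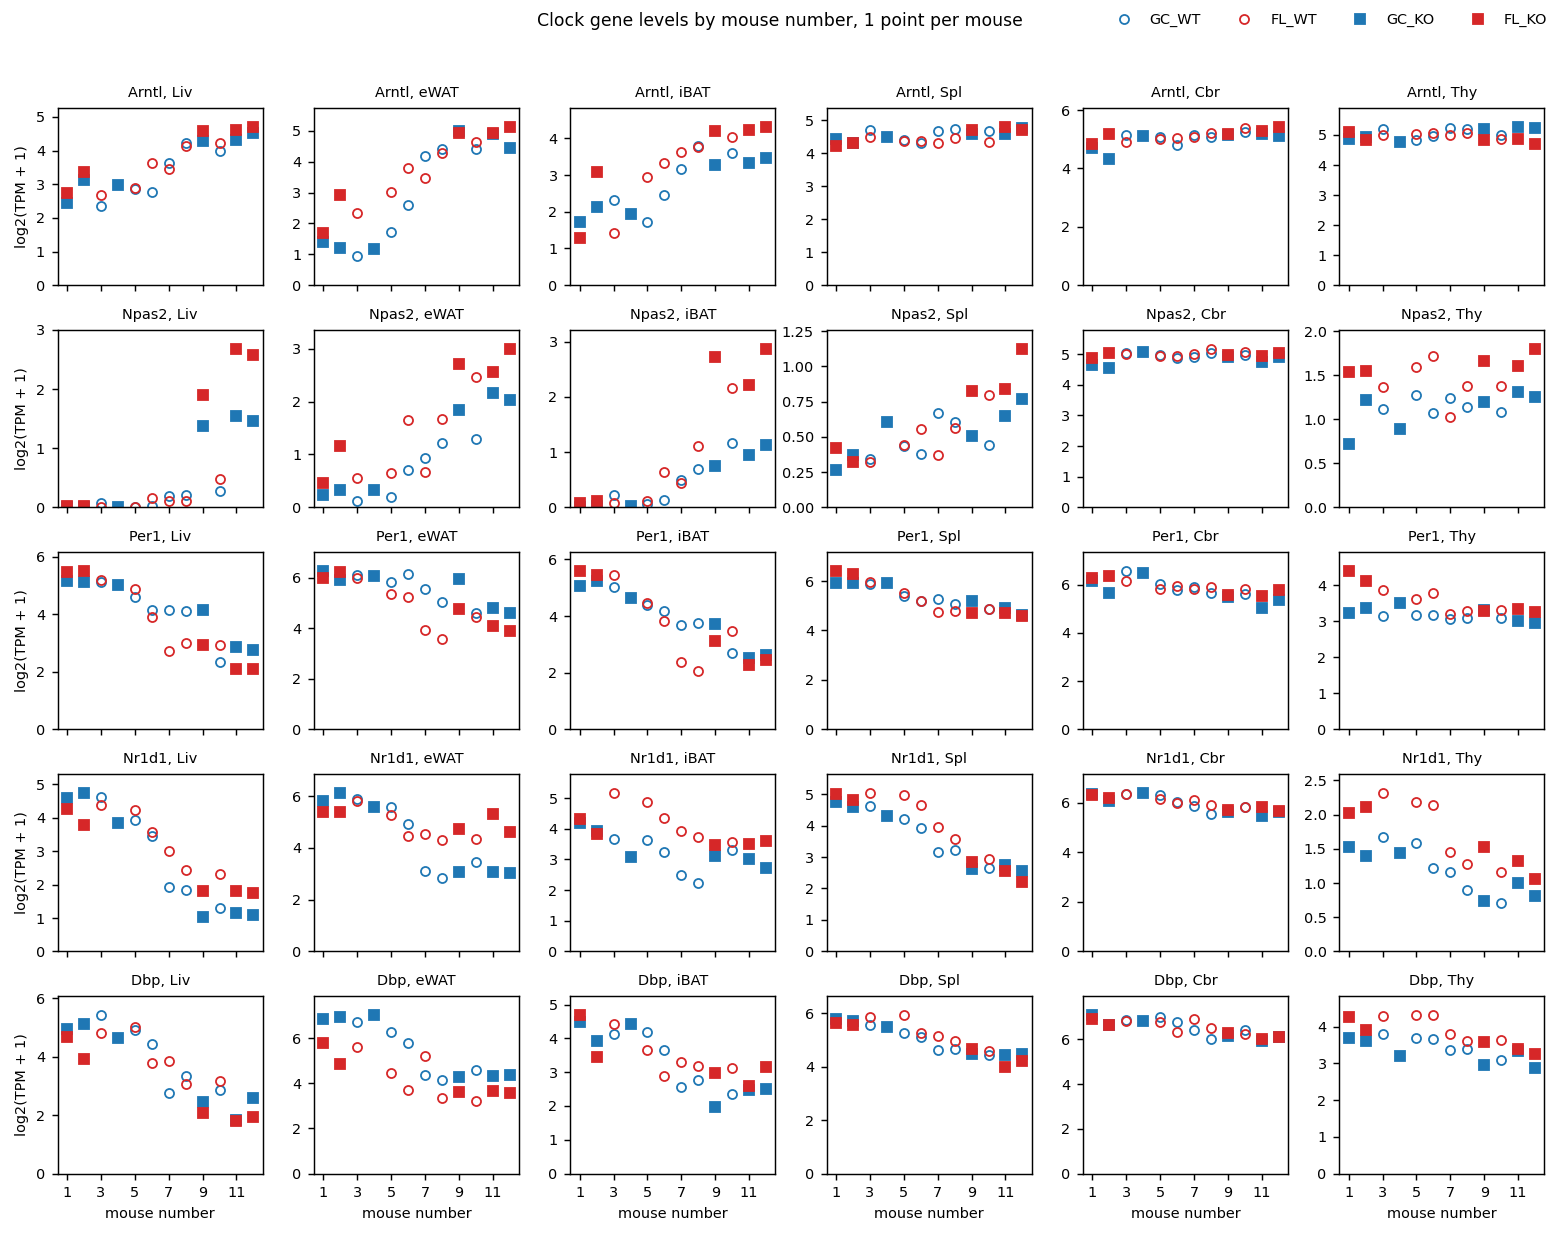
Level of 5 clock genes (rows) in 6 tissues (columns), as log2(TPM + 1) on the y axis against the mouse number on the x axis, with 1 point per mouse and a scale of its own in each panel. Open circles are WT and filled squares Nrf2KO mice, blue GC and red FL. In Liv, eWAT and iBAT the points of Arntl and Npas2 lie higher, and those of Per1, Nr1d1 and Dbp lower, in mice of higher number, in FL and GC mice alike, and Arntl, Per1 and Dbp are flatter in Cbr and Thy.

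The size of the spread differed between tissues. The median SD of log2(TPM + 1) over the 10 genes, within genotype, was 0.893 in Liv, 0.794 in eWAT and 0.819 in iBAT of GC mice, against 0.289 in Cbr and 0.17 in Thy. In FL mice it was 0.862, 0.738 and 0.706 in the same 3 tissues, 0.194 in Cbr and 0.278 in Thy. TpB, which mixes bone, nerve, muscle and marrow (forebrain neuron markers 326 to 2780 TPM in sum, skeletal muscle markers 13.9 to 26200 TPM), had a median SD of 0.713 in GC mice, and the part of this mix in its clock gene values was not tested.

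The match between flight and ground mice of one number was examined over 11 numbers in 7 tissues, after each group's mean of log2(TPM + 1) had been subtracted, and r was taken between the remainders. Of 70 relations (10 genes in 7 tissues), 67 were positive, and 45 passed an exact permutation of numbers within genotype at a Benjamini-Hochberg adjusted value under 0.05, all 45 of them positive (40 by Spearman's rho). Over all genes of a tissue at 1 TPM or more in a group, the median r ran from -0.079 in Thy to 0.213 in Liv, and over the 10 clock genes from 0.601 in Thy to 0.903 in Liv. All 10 clock genes passed in eWAT, 9 in iBAT, 7 in Liv, 6 in Spl, 6 in Cbr, 4 in TpB and 3 in Thy. Dbp and Nr1d2 passed in 7 of 7 tissues and Nr1d1 in 6, while Cry1 and Per3 passed in 2. Without the 2 numbers farthest from the median, r in the 45 relations stayed positive and ranged from 0.392 to 0.98. The libraries of each of these 7 tissues were numbered in the order of the mice in both conditions, so that mouse number and library order cannot be told apart. In TpB, the sets of low and high mouse number compared above also lay in 2 separate runs of library numbers. Mouse number and library run therefore cannot be told apart between these sets of TpB.

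The tissues of one mouse also went together. Over 23 mice, 166 of 210 relations (10 genes in 21 pairs of tissues) passed a permutation test within groups at an adjusted value under 0.05, and 165 of these were positive (164 passed by Spearman's rho). Per1, Dbp and Ciart passed in 21 of 21 pairs and Cry1 in 4, of which 3 were positive. With the mouse number itself, which was tried after the values had been seen, 113 relations passed, of 70 in GC mice (12 rising with the number and 45 falling) and 70 in FL mice (13 rising and 43 falling). Arntl rose in 4 and 5 tissues of GC and FL mice, Npas2 in 5 and 5 and Cry1 in 3 and 3. The falling ones were of Per1, Per2, Per3, Nr1d1, Nr1d2, Dbp and Ciart. Neither the 166 nor the 113 relations were set beside a share of all genes. The relations share mice, tissues and genes, so they are not independent of each other.

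Most of these relations lay between low and high numbers. Nrf2KO mice held no number between 04 and 09, and r over all mice is therefore not given for single genes. Within mice 01 to 06 (11 mice) the median r between tissues was 0.396 and 176 of 210 were positive, and within mice 07 to 12 (12 mice) it was 0.283 and 148 were positive. None of these 210 relations passed the adjustment in either set (exact permutation, 40 and 25 with an unadjusted value under 0.05, and the smallest p allowed was 0.00231 and 0.000772). For the mouse number within the sets, 61 and 60 of 70 relations had the sign of all mice, and 0 passed in either set (exact permutation, 26 and 14 unadjusted).

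Without the mouse number in the fit, few clock genes were called in flight, and the share called was near that of all genes. Between FL_WT and GC_WT, 2 of 90 tests (10 genes in 9 tissues, all of which passed the filter on low counts) were called higher and 2 lower, where 3.23% and 3.32% of all genes tested were called. Between FL_KO and GC_KO, 3 were called higher and 3 lower, against 4.43% and 4.48% of all genes. Each was called by edgeR's quasi-likelihood test at a Benjamini-Hochberg adjusted p under 0.05 over all genes of the tissue. Of the 10 calls, 9 were in Thy. Both comparisons within Thy had a high background, with 11.8% of genes higher and 11% lower in FL_WT and 19.3% and 18.9% in FL_KO, against 2 and 2 of 10 members in WT and 3 and 2 of 10 in KO.

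**Figure D2:**
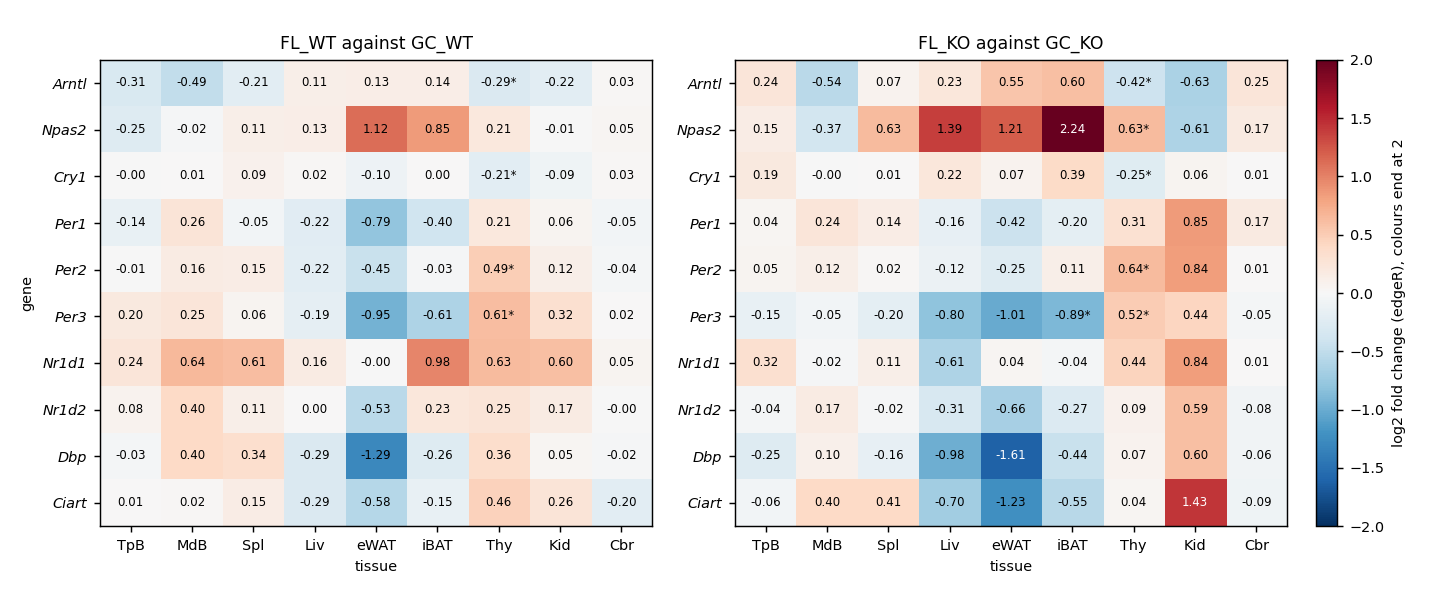
Difference between flight and ground mice of each genotype as log2 fold change (edgeR), with 10 clock genes in rows and 9 tissues in columns, and the value in each field. A star marks an adjusted p under 0.05. Of 10 stars, 9 are in Thy and 1 is Per3 in iBAT of Nrf2KO mice, and the values of Dbp in eWAT are -1.29 and -1.61 without a star.

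In Thy, the period genes Per2 and Per3 rose with flight. Per3 was at 1.69, 2.18 and 2.57 TPM (lowest, median, highest) in GC_WT and at 2.88, 3.86 and 5.47 TPM in FL_WT. In Nrf2KO mice it was at 1.46, 1.86 and 2.26 TPM in GC_KO and at 4.56, 3.29, 2.73, 2.75 and 3.02 TPM in FL_KO. Flight and ground mice did not overlap in either genotype. The log2 fold change of Per3 was 0.61 ± 0.15 (SE; edgeR adjusted p = 0.0055) in WT and 0.52 ± 0.17 (adjusted p = 0.017) in KO, and without FL_KO mouse 01 the latter was 0.41 (adjusted p = 0.066).

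Per2 in Thy showed the same separation. It was at 1.25, 1.8 and 2.16 TPM (lowest, median, highest) in GC_WT and at 2.22, 2.9 and 3.95 TPM in FL_WT. In GC_KO it was at 1.28, 1.62 and 1.85 TPM and in FL_KO at 4.07, 3.75, 2.62, 2.38 and 2.14 TPM. All flight mice were above all ground mice of their genotype, with log2 fold changes of 0.49 ± 0.15 in WT (edgeR adjusted p = 0.024) and 0.64 ± 0.16 in KO (adjusted p = 0.0033). Per1 in Thy was not called (0.21 in WT and 0.31 in KO, edgeR adjusted p = 0.42 and 0.20).

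The activator genes of Thy went in different directions. Npas2 was at 0.65, 1.31 and 1.47 TPM in GC_KO and at 1.91, 1.93, 2.17, 2.04 and 2.48 TPM in FL_KO, without overlap (log2 fold change 0.63 ± 0.15, edgeR adjusted p = 0.0023). In WT it was at 1.1, 1.18 and 1.42 TPM in GC and at 1.04, 1.6 and 2.3 TPM in FL, which overlapped (0.21, edgeR adjusted p = 0.31). Arntl was lower by the count test, at -0.29 ± 0.05 in WT (edgeR adjusted p = 0.00055) and -0.42 ± 0.06 in KO (adjusted p = 6.7e-06). Its TPM overlapped, however, with 27.8, 33.1 and 36.4 TPM in GC_WT and 28.5, 31.3 and 32.8 TPM in FL_WT, and with 26.2, 32.5 and 37.7 TPM in GC_KO and 33.5, 27.8, 27.5, 28.4 and 24.9 TPM in FL_KO.

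The calls of Arntl and Cry1 in Thy, and the sign of Cry1, rested on the scale. On the log2(TPM + 1) scale the median of all genes in Thy moved by 0.2 with flight in WT and 0.19 in KO, and Arntl differed by -0.06 and -0.17 (limma adjusted p = 0.6 and 0.16). Cry1 was lower by the count test (-0.21 ± 0.05 in WT and -0.25 ± 0.06 in KO, edgeR adjusted p = 0.0055 and 0.0011), but its sign turned on the TPM scale (0.02 and 0.01). Per2, Per3 and, in KO, Npas2 kept their direction and their call on both scales.

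**Figure D3:**
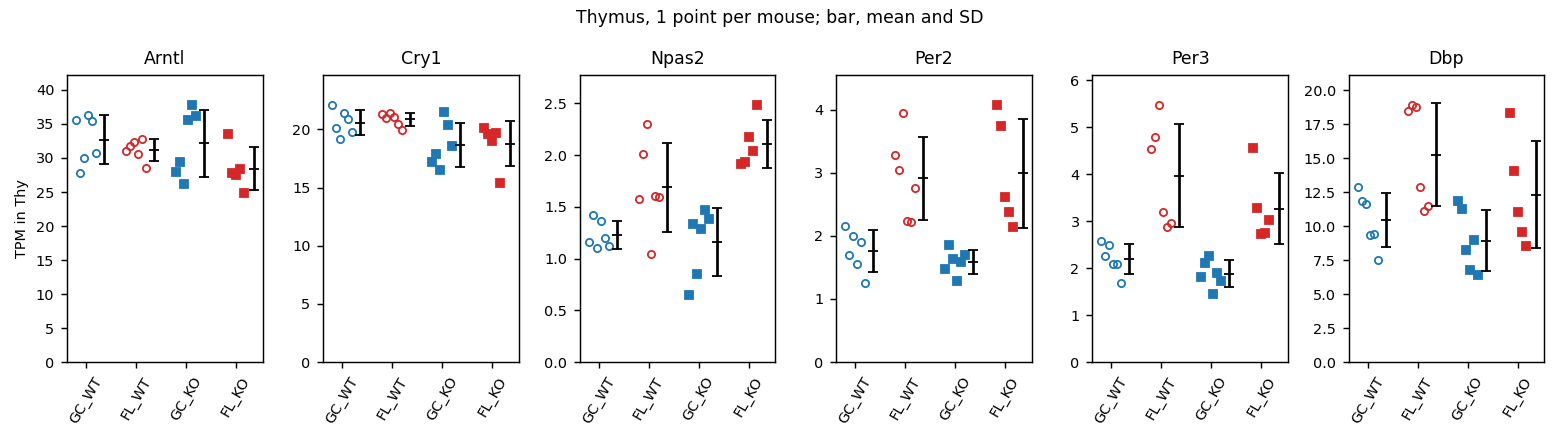
TPM of 6 clock genes in Thy, with 1 point per mouse and, to the right of each group, its mean and SD (n = 6, and 5 in FL_KO). Per2 and Per3 of FL mice lie above all GC mice of the same genotype, Npas2 does so in KO, and Arntl and Cry1 overlap.

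Cell type markers moved with flight in Thy. The thymocyte list (Rag1, Dntt, Cd8a, Cd8b1, Ptcra and Cd3e) summed to 2380 to 2880 TPM in GC_WT and 1960 to 2480 TPM in FL_WT, and to 1690 to 2690 TPM in GC_KO and 1590 to 1810 TPM in FL_KO, with 4 and 5 of 6 markers called lower and none at 0. The B cell list summed to 14.9 to 18.5 TPM and 19.7 to 22.5 TPM in WT and to 11.9 to 20.8 TPM and 17.6 to 26.9 TPM in KO, with 1 and 3 of 4 markers called higher. Their part in the Thy values was not tested. Leaving out ground mouse 04, whose Thy library stands apart, ended no call of Per2, Per3, Npas2, Arntl or Cry1 in Thy.

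REV-ERB genes and outputs in Thy were not called. Nr1d1 was at 0.64, 1.28 and 2.2 TPM in GC_WT and at 1.23, 2.57 and 3.98 TPM in FL_WT (0.63, edgeR adjusted p = 0.20). Dbp was at 7.5, 10.5 and 12.9 TPM and at 11.1, 15.7 and 18.9 TPM in the same groups (0.36, edgeR adjusted p = 0.18).

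In iBAT, Per3 of Nrf2KO mice was lower in flight. It was at 3.68, 7.64 and 10.3 TPM in GC_KO and at 8.69, 5.42, 3.88, 3.8 and 4.52 TPM in FL_KO, which overlapped (log2 fold change -0.89 ± 0.30, edgeR adjusted p = 0.025). This was 1 of 10 members lower where 16.6% of all genes were lower and 17.0% higher. In WT Per3 was at 4.57, 7.87 and 9.71 TPM in GC and at 3.98, 6.21 and 8.0 TPM in FL (-0.61 ± 0.28, edgeR adjusted p = 0.13), and no member was called where 8.83% of genes were higher and 10.3% lower. On the log2(TPM + 1) scale, where the median of all genes in iBAT moved by 0.38 in KO, Per3 differed by -0.4 (limma adjusted p = 0.14). Skeletal muscle markers were high in 3 flight libraries of iBAT (6210 TPM in FL_WT 06, 3010 TPM in FL_WT 08 and 7870 TPM in FL_KO 11, against at most 70 TPM in any other mouse), with 5 of 7 markers called higher in each genotype and none at 0. All 3 erythroid markers tested in iBAT were called lower in each genotype (the list of 6 summed to 103 to 213 TPM in GC_WT, 61.7 to 99.4 in FL_WT, 81.4 to 210 in GC_KO and 69 to 111 TPM in FL_KO). Of 5 brown adipocyte markers, 1 was called higher and 2 lower in KO, and 1 lower in WT (3350 to 4800 TPM in sum in GC_KO and 3280 to 6820 TPM in FL_KO). The part of these markers in the Per3 values was not tested. Without FL_KO 11, Per3 in KO was -0.78 (edgeR adjusted p = 0.066). Without FL_KO 09 or 12 it was -0.8 (0.062) and -0.81 (0.061), so the call rested on each of these mice.

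Since the Per3 values had opposite signs in Thy and iBAT, the difference between the tissues was tested within mice. The log2(TPM + 1) difference of Thy minus iBAT was -0.5 in FL_WT and -1.37 in GC_WT, a change of 0.87 (exact permutation p = 0.00433, 2-sided, n = 6 and 6). In Nrf2KO mice it was -0.52 in FL and -1.48 in GC, a change of 0.96 (exact permutation p = 0.00433, n = 5 and 6). Both tests were chosen after the values had been seen, so neither p is read as support. In each genotype 5 flight mice lay above all ground mice, and the smallest p allowed was 0.00216.

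**Figure D4:**
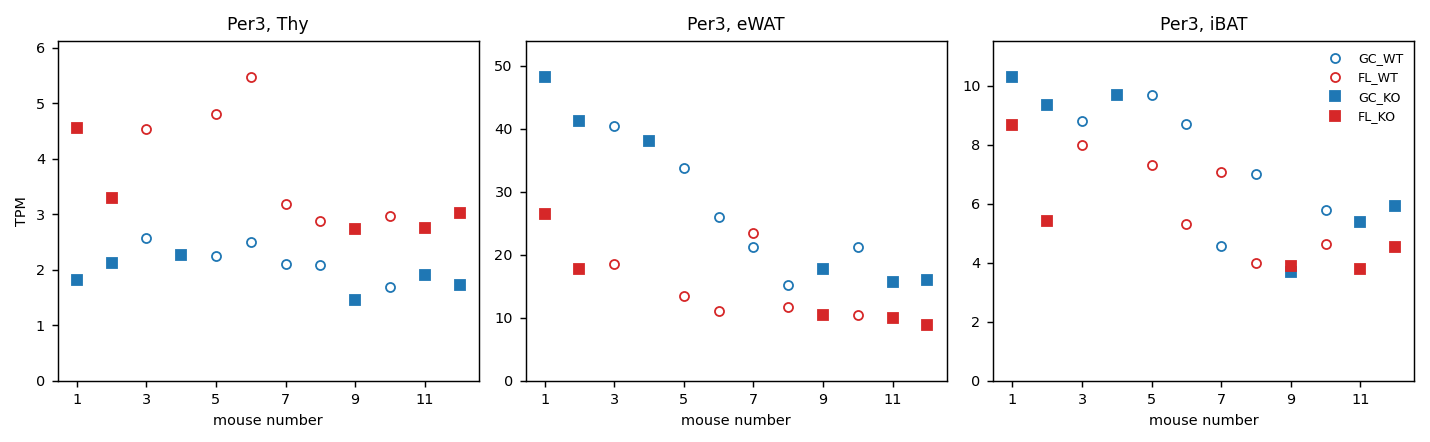
TPM of Per3 against the mouse number in Thy, eWAT and iBAT, with 1 point per mouse (open circles WT, filled squares Nrf2KO, blue GC, red FL). At like numbers, FL points lie above GC points in Thy and mostly below them in eWAT and iBAT.

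In eWAT no member was called, against 6.65% of genes higher and 6.78% lower in WT and 3.73% and 3.98% in KO. Dbp was at 16.8, 38.7 and 105 TPM (lowest, median, highest) in GC_WT and at 8.39, 16.6 and 48.3 TPM in FL_WT, with a log2 fold change of -1.29 (edgeR adjusted p = 0.20). Per3 was at 15.2, 23.6 and 40.4 TPM in GC_WT and at 10.5, 12.5 and 23.4 TPM in FL_WT (-0.95, edgeR adjusted p = 0.067). In Nrf2KO mice Per3 was at 15.6, 27.9 and 48.2 TPM in GC and at 26.4, 17.8, 10.4, 9.86 and 8.81 TPM in FL (-1.01, edgeR adjusted p = 0.084). The white adipocyte markers summed to 24700 to 38000 TPM in GC_WT and 15000 to 24000 TPM in FL_WT, and to 22000 to 28300 and 17400 to 25300 TPM in GC_KO and FL_KO, with 2 of 5 called lower in WT and none in KO and none at 0, and their part was not tested.

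The calls grew in number when the mouse number entered the fit. With a linear and a squared term for the number in 7 tissues, added after the values had been seen, 9 of 70 tests were called higher and 7 lower in WT, against 5.51% and 5.5% of all genes. In KO 9 were higher and 7 lower, against 6.65% and 6.75% of all genes. The members' shares were above these backgrounds. These genes had already been seen to follow the number, however, so that a larger share than that of all genes was partly built in. It is not read as a result about the members. The direction differed between tissues.

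By this fit, Per3, Dbp, Per1 and Per2 of eWAT were called lower and Npas2 higher in flight in WT. In KO, Per3 and Dbp were called lower and Npas2 higher. The share of all genes by this fit was taken over 7 tissues together, so single tissues have no background of their own. Per3 was lower by 0.89 ± 0.17 and Dbp by 1.18 ± 0.35 on the log2 scale in WT, and by 0.93 ± 0.19 and 1.35 ± 0.39 in KO. At the low numbers, Dbp of eWAT was at 115 and 120.5 TPM in GC_KO 01 and 02 and at 54.3 and 28.1 TPM in FL_KO 01 and 02. At the high numbers 09, 11 and 12 it was at 18.4, 19.3 and 19.9 TPM in GC_KO and at 11.4, 11.5 and 10.8 TPM in FL_KO. Per1 (-0.81) and Per2 (-0.45) were called lower in WT, and Npas2 was called higher at 1.13 ± 0.36 in WT and 1.37 ± 0.37 in KO.

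In iBAT this fit called Per3 lower in both genotypes (-0.61 ± 0.15 in WT and -0.88 ± 0.16 in KO). Nr1d1 was higher in WT (0.94 ± 0.22), with 34.8, 28.5 and 19.4 TPM in FL_WT 03, 05 and 06 and 11.7, 11.3 and 8.42 TPM in GC_WT of the same numbers. Npas2 of iBAT was higher in KO (2.19 ± 0.47), where FL_KO 09, 11 and 12 were at 5.61, 3.63 and 6.33 TPM and GC_KO 09, 11 and 12 at 0.69, 0.94 and 1.19 TPM, and Cry1 was higher by 0.34 ± 0.12. Mice 01 and 02 were at most at 0.08 TPM of Npas2 in both conditions.

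In Spl of WT mice, Nr1d1 (0.60 ± 0.14) and Dbp (0.33 ± 0.09) were called higher by this fit. The erythroid markers of Spl summed to 1400 to 5580 TPM in GC_WT and 259 to 1200 TPM in FL_WT, with 6 of 6 called lower and none at 0, and their part was not tested. In Thy the fit added Nr1d1 in both genotypes, Nr1d2 and Dbp in WT and Per1 in KO, all higher. In Liv of Nrf2KO mice it called Per3 (-0.74 ± 0.15) and Dbp (-0.99 ± 0.29) lower and Npas2 higher (1.17 ± 0.34). Only in Liv of Nrf2KO mice did every pair of whole libraries of the same number deviate together with r above 0.1. All pairs were positive, some with r below 0.1, in Liv of WT mice and in iBAT and Spl of KO mice. With the number as a block in Liv of Nrf2KO mice, Per3 was at -0.68 ± 0.17 (edgeR adjusted p = 0.039), against -0.80 (adjusted p = 0.23) without it. Cbr and TpB gave no call of a member in a flight comparison, with or without the number terms.

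MdB and Kid had 3 mice per group, or 2 in FL_KO of MdB, and unlike numbers in flight and ground groups. In Kid, FL_KO mice 01, 02 and 11 were set against GC_KO mice 02, 11 and 12, and FL_WT mice 05, 08 and 10 against GC_WT mice 06, 07 and 10. Arntl in Kid was at 2.33, 3.76 and 22.9 TPM in FL_KO 01, 02 and 11 and at 4.52, 17.4 and 19.3 TPM in GC_KO 02, 11 and 12, so mice of low number were low in both conditions. The largest fold change of a member in Kid was that of Ciart in KO (1.43, edgeR adjusted p = 0.41), and none passed in Kid or MdB.

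The absence of NRF2 left the clock genes of ground mice without a call. Between GC_KO and GC_WT, 0 of 90 tests were called higher or lower (edgeR), 4 had an unadjusted p under 0.05, and DESeq2 and limma called 0, against 0.836% and 0.814% of all genes called higher and lower. Between FL_KO and FL_WT, 1 of 90 was called higher and 0 lower, against 0.5% and 0.855% of all genes. The difference between the flight effects of KO and WT was called in 0 of 90 tests (edgeR), with 0 under an unadjusted p of 0.05 and 0 called by DESeq2 or limma, and in 0.0% of all genes in each direction. With 5 or 6 mice a group and this spread, that does not show that the genotypes responded alike.

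The single call was Npas2 in Liv. FL_KO mice were at 0.02, 0.02, 2.74, 5.41 and 4.95 TPM (mice 01, 02, 09, 11 and 12) and FL_WT mice at 0.0, 0.07 and 0.4 TPM (lowest, median, highest), with a log2 fold change of 4.42 ± 1.19 (edgeR adjusted p = 0.037; 1.36% of all genes in Liv were higher). The 3 FL_KO mice of high number lay above all FL_WT mice and the 2 of low number did not. The ground mice showed the same form, with 1.59, 1.93 and 1.76 TPM in GC_KO 09, 11 and 12, 0.0 TPM in GC_KO 01, 02 and 04, and at most 0.21 TPM in GC_WT (3.17, edgeR adjusted p = 0.22).

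WT mice 07, 08 and 10, with neighbouring numbers, were at 0.07, 0.07 and 0.4 TPM in FL and at 0.14, 0.15 and 0.21 TPM in GC. The call was lost with DESeq2 (adjusted p = 0.066) and on the log2(TPM + 1) scale (limma adjusted p = 0.098). It was also lost without FL_KO mouse 09, 11 or 12 (edgeR adjusted p = 0.066, 0.099 and 0.091) and with flight mouse 04 included (0.063). With the number as a linear and squared term, Npas2 in Liv was higher in KO by 3.69 ± 0.48 in flight and by 2.56 ± 0.49 on the ground (edgeR adjusted p = 3e-05 and 0.0028). The same fit called Dbp, Nr1d2 and Per3 of Liv lower in FL_KO than in FL_WT (-1.47, -1.03 and -0.75). Nrf2KO mice held the lowest and the highest numbers, so that these genotype values rest on the form given to the number.

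**Figure D5:**
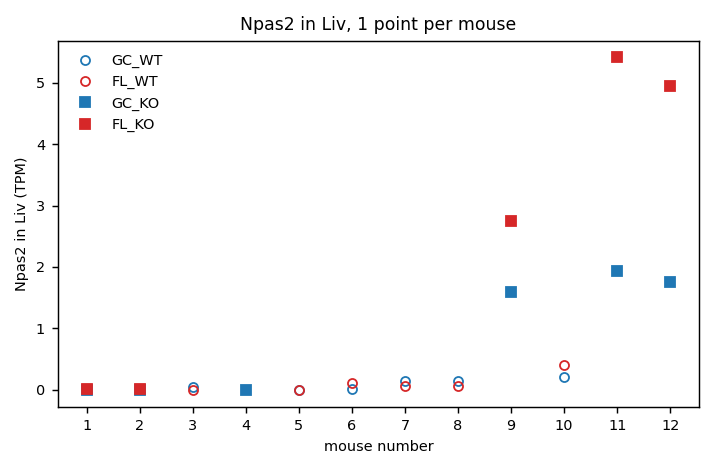
TPM of Npas2 in Liv against the mouse number, with 1 point per mouse (open circles WT, filled squares Nrf2KO, blue GC, red FL). Nrf2KO mice 09, 11 and 12 are at 1.59 to 5.41 TPM, and all WT mice, among them 08 and 10, are at 0.4 TPM or below.

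The other 19 genes of the clock list included kinases, E3 ligase parts, nuclear receptors and output factors, and 167 tests over 9 tissues passed the filter. In WT 7 were higher and 11 lower in flight, and in KO 7 and 12, where 3.23% and 3.32% of all genes were called in WT and 4.43% and 4.48% in KO. In eWAT 5 of 18 were lower and 0 higher in each genotype, against 6.78% of all genes lower in WT and 3.98% in KO. Usp2, a deubiquitinase with a strong daily rhythm, had the smallest adjusted p of the list there (-2.01 ± 0.21 in WT and -1.52 ± 0.22 in KO, edgeR adjusted p = 4.3e-06 and 0.00042). Nampt, an NAD-making enzyme, fell by 0.79 and 0.69. The PAR bZIP factors Hlf (-0.80 and -0.79) and Tef (-0.75 and -0.82), relatives of DBP, were lower in both genotypes, and Bhlhe40, a repressor of the BMAL1 pair, was lower in KO (-2.46, edgeR adjusted p = 0.0077).

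In iBAT, Bhlhe40 was lower by 2.31 in WT and by 2.80 in KO (edgeR adjusted p = 0.00073 and 0.00011). Nampt, among 3 of 19 lower in each genotype (10.3% of all genes in WT and 16.6% in KO), was at -0.57 and -0.76. Csnk1d, a kinase of PER proteins, was 1 of 2 higher in KO (0.30). Their direction was the same on the log2(TPM + 1) scale, where Nampt was at -0.26 and -0.34 (limma adjusted p = 0.085 and 0.029).

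In Thy, 6 of 18 were higher and 3 lower in WT (11.8% and 11% of all genes), and 5 and 4 in KO (19.3% and 18.9%), so that the lower counts and the KO counts were near the background. Rora was higher (0.38 and 0.64) in WT and KO, and Clock, the partner of BMAL1, was higher (0.21 and 0.36). Nampt (0.30 in WT) and Bhlhe40 (0.70 in KO) were higher. Cry2 was not called by edgeR in any tissue in flight, but was higher in Thy on the log2(TPM + 1) scale (0.35 and 0.21 in WT and KO, limma adjusted p = 0.0019 and 0.041). Nfil3, a D-box repressor, was called in Liv of WT mice (0.63 ± 0.12, edgeR adjusted p = 0.0079).

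Genes known to be induced by glucocorticoids, a daily and stress-linked signal that reaches peripheral clocks, were tested 108 times in each genotype. In WT 6 were called higher and 2 lower, against 3.23% and 3.32% of all genes. In KO 4 and 1 were called, against 4.43% and 4.48%. Only the count called higher in WT was above the share of all genes. In eWAT Pdk4 was higher in KO (1.28, edgeR adjusted p = 0.028), Mt2 in WT (1.27, adjusted p = 0.011), and Klf9 lower in both genotypes (-0.63 and -0.52, adjusted p = 0.0055 and 0.038), as was Sult1a1 in WT (-0.57). In Thy Mt1 (0.54) and Pdk4 (0.91) were higher in WT and Cdkn1a (0.52) and Mt1 (0.43) in KO, and in iBAT Dusp1 was higher in WT (1.06) and Pdk4 in KO (1.01). By limma on log2(TPM + 1), Pdk4 of eWAT was higher in WT and KO alike (1.3 and 1.38, adjusted p = 0.0074 and 0.014). So were Pdk4 of iBAT (1.34 and 1.72, limma adjusted p = 0.0036 and 0.0004) and Dusp1 of iBAT (1.38 and 0.92, limma adjusted p = 4.5e-05 and 0.0013). By edgeR, Fkbp5, Tsc22d3, Sgk1, Zbtb16 and Errfi1 were not called in flight in any tissue. On the log2(TPM + 1) scale, Sgk1 was higher in KO in Thy (0.43, limma adjusted p = 0.017) and iBAT (0.83, limma adjusted p = 0.034), and Errfi1 in iBAT (1.21, limma adjusted p = 0.022).

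The genes most like Arntl and Dbp were sought over 36 group means of log2(TPM + 1), centred in each tissue, among 8802 genes at 1 TPM or more in all 36 groups. These means share mice, libraries and the order of numbers. Dbp went with Tef (r = 0.918), Per3 (0.872), Mknk2 (0.764), Usp2 (0.759) and Klhl2 (0.734), so that 1 member and 2 others of the clock list were among its 5 nearest. The 5 most opposed to Dbp were Arntl (-0.752), Anxa2, Dhrs3, Tubb2a and Zbtb8os. Arntl went most with Ccdc66 (0.731), Leo1 (0.712), Acbd4, Dynlrb1 and Tubb2a, and was most opposed to Per3 (-0.791), Dbp (-0.752), Slc25a10, Gbe1 and Klf13.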

How the data were processed

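RNA was sequenced from 9 tissues, in 192 samples of which 184 were used after flight mouse 04 was left out. The authors mapped single reads to mm10 with STAR 2.6.1 and quantified GENCODE genes with RSEM 1.3.1 (versions per the labels), and whether the counting used strand is not given in the sources used here. The authors deposited RSEM expected counts, which were rounded to whole numbers for the count tests. The authors also deposited TPM from RSEM (scaled for length and library total), used here for levels, and FPKM from RSEM, whose 192 columns were not used.

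Groups were compared in each tissue with edgeR 4.0.16 (R 4.3.3; TMM factors, filterByExpr, quasi-likelihood test, 4 groups in 1 fit), and p-values were adjusted over all genes of the tissue (Benjamini-Hochberg, threshold 0.05). A ± value of a fold change is its standard error. DESeq2 1.42.0, and limma 3.58.1 on log2(TPM + 1) and log2(TPM + 0.1), were alternatives, as were RLE factors, no filter, flight mouse 04 included, only the groups of a contrast, left-out mice, the mouse number as a block or a term, and a library-set term in TpB. The edgeR and DESeq2 steps were tested on simulated data with 200 genes changed. Correlations used exact permutation within genotype, or 100000 permutations within groups.

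Every pair of whole libraries of the same number had r above 0.1 only in Liv of Nrf2KO mice (0.222 to 0.369 over 5 pairs). All pairs were positive, but not all above 0.1, in Liv of WT mice (0.02 to 0.342). The same held in iBAT (0.071 to 0.286) and Spl (0.014 to 0.173) of KO mice. These r values come from the data, since the same numbers mark different animals. Gene positions came from GENCODE vM21 on GRCm38, whose stable identifiers matched for all 10 genes. The members and lists were chosen with earlier results of these data known. All 10 genes are named in every tissue. Of the other clock list and the glucocorticoid list, up to 3 called genes per tissue and flight contrast with the smallest adjusted p are named, with Tef, Hlf, Nfil3, Clock and Cry2, and the 5 genes most and least like Arntl and Dbp. A gene that this rule would name is not reported here. Genes named beyond that rule were chosen after their values were seen.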

Additional observations from a re-analysis of the deposited data

Results flagged for a closer look

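Of 280 groups of clock gene values tested for a mouse far from the rest of its group, 5 held one, where about 14.0 are met by chance. Arntl in Cbr was at 26.7 TPM in GC_WT mouse 06, below the other 5 mice (32.92 to 36.82 TPM). Npas2 in Liv was at 0.4 TPM in FL_WT mouse 10, above the others (0.0 to 0.12 TPM). Per1 in Liv was at 4.08 TPM in GC_WT mouse 10, below the others (16.46 to 33.76 TPM), and Per1 in Cbr was at 69.8 TPM in FL_WT mouse 03, above the others (55.13 to 60.12 TPM). Cry1 in Thy was at 15.38 TPM in FL_KO mouse 12, below the others (19.04 to 20.08 TPM).

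The flight difference of Per3 had opposite signs in Thy and iBAT. On the log2(TPM + 1) scale, Thy minus iBAT was higher in flight by 0.87 in WT and by 0.96 in Nrf2KO mice. Both changes passed an exact permutation test within genotype (p = 0.00433 for each, n = 6 and 6 in WT and 5 and 6 in KO). The pair of tissues was chosen after the values had been seen, so neither p is read as support.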

How the results depend on the processing

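The counts of clock genes called in flight depended on the scale and on the mouse number. In WT, with 2 higher and 2 lower by edgeR, limma on log2(TPM + 1) and on log2(TPM + 0.1) each called 5 higher and 0 lower. In KO, with 3 and 3, these scales called 6 and 5 higher and 0 lower. A linear term for the number gave 9 higher and 7 lower in WT and 7 and 7 in KO, and a linear and squared term 9 and 7 in each genotype. With the number as a replicate block, 9 were higher and 6 lower in WT and 9 and 5 in KO. The numbers mark different animals, and only in Liv of Nrf2KO mice did all pairs of libraries of a number have r above 0.1. In that tissue and genotype the block added the call of Per3 and changed no other member's call. The block could not be fitted for KO against WT, and was not used in Kid and MdB.

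Between GC_KO and GC_WT, with none called, the linear term called 1 higher and 1 lower, and the linear and squared terms 1 higher. Between FL_KO and FL_WT the 1 call (Npas2 in Liv) became 0 with DESeq2, with flight mouse 04 included, on both TPM scales and with only the groups of the contrast, and leaving out 1 mouse gave 0 to 1. The linear term called 6 lower there and the squared term 3, where edgeR without it called 0.

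The sign of Cry1 in Thy turned to 0.02 in WT and 0.01 in KO on both TPM scales. Relations between tissues (166 passing) and with the mouse number (113) fell to 0 within mice 01 to 06 and to 0 within mice 07 to 12, where the sets held fewer mice. Of the other alternatives, 286 counts stayed within 1.5 times, and of single genes 151 values kept direction and call and 17 kept the direction only. In the counts over tissues, those not refitted by an alternative kept the main fit. Alternatives in 1 tissue thus had little room to move a count, and counts that stayed at 0 are included. The causes of the changes were not tested. Depth limits Npas2 in Liv and Ciart in Thy, whose levels were near 0, and the hour of sampling limits every flight comparison.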
